A study of Mus musculus with 6 samples.

Results

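Of the 24062 gene symbols in the count table, 40 encode proteins of the heart muscle cell and are described here. They were chosen by name: 7 genes of the thick filament, 6 of the thin filament and troponin complex, 9 of the Z-disc, M-line and titin, 8 of calcium storage and exchange, 7 of oxygen, fuel and mitochondrial energy, the natriuretic peptide genes Nppa and Nppb, and the chaperone gene Cryab. All 40 symbols had a row in the table. The cells were non-cardiomyocytes of the adult mouse heart, so that these genes belong mainly to a cell type that the preparation was meant to leave behind. Every mouse carried Tw2-CreERT2, a tamoxifen-activated Cre recombinase under the control of Twist2, together with R26-tdTO, a tdTomato reporter that Cre switches on. All received tamoxifen at 8 weeks of age, and cardiac cells were taken by Langendorff perfusion 10 days after the initial dose, at a stated age of 9 weeks. The fraction depleted of cardiomyocytes by gravity and a BSA gradient was stained with Mitoview633, a mitochondrial dye, and sorted on the dye and on tdTomato into Tw2+ (tdTomato-positive) and Tw2- (tdTomato-negative) cells, with 3 RNA-seq libraries each. Both groups therefore share genotype, drug and age, and differ in the reporter, which marks cells in which the Twist2-driven Cre was active and not a cell type as such. The labels do not say how many hearts were used per library. The table names 4 libraries with a group and a replicate number (Tw2- 2, Tw2- 3, Tw2+ 2 and Tw2+ 3) and 2 with a group only, called here the unnumbered Tw2- and the unnumbered Tw2+ library.

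Cardiomyocytes contract when calcium enters the cytosol, binds troponin on the actin-containing thin filament and lets myosin heads of the thick filament pull on it. Titin, the M-line and the Z-disc hold the filaments in register. Calcium leaves its store, the sarcoplasmic reticulum, through the ryanodine receptor Ryr2 and is pumped back by SERCA2, the product of Atp2a2, which phospholamban (Pln) and sarcolipin (Sln) restrain. Atria and ventricles use different light chains: Myl2 and Myl3 are ventricular, whereas Myl7, Myl4, Nppa and Sln are mainly atrial in the adult mouse.

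Promoter sequences are shown for 5 genes whose levels behaved differently in these libraries: Myh6 and Myl3, which fell in Tw2+ together with most sarcomere genes, the atrial genes Nppa and Myl7, and Myl4, which was not lower in Tw2+. Each line gives the 250 bases before the start of the RefSeq transcript on the GRCm38.p6 assembly, read 5′ to 3′ on the strand of the gene. Capitals mark, on either strand, a MEF2 site, a CArG box (the site of serum response factor), the MCAT element CATTCC or the GATA-type site AGATAA, and no base fell in 2 of these matches in the 5 windows. The windows are chr14:54966608-54966857 on the minus strand for Myh6, chr9:110763428-110763677 on the plus strand for Myl3, chr4:148000472-148000721 on the plus strand for Nppa, chr11:5898783-5899032 on the minus strand for Myl7 and chr11:104550413-104550662 on the plus strand for Myl4.
Myh6: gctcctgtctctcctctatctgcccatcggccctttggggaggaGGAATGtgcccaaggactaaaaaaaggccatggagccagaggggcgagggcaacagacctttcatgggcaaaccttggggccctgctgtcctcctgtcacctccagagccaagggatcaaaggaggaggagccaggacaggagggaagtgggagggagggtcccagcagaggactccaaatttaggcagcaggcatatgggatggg
Myl3: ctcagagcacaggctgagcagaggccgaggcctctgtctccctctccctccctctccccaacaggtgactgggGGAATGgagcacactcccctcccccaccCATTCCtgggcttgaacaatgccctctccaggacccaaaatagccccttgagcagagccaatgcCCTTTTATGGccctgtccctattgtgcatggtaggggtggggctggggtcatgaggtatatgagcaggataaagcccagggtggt
Nppa: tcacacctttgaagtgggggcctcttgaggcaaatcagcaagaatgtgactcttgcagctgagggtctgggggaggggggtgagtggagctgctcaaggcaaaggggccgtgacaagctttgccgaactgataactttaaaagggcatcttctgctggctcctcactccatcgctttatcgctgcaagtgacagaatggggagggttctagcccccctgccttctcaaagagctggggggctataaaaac
Myl7: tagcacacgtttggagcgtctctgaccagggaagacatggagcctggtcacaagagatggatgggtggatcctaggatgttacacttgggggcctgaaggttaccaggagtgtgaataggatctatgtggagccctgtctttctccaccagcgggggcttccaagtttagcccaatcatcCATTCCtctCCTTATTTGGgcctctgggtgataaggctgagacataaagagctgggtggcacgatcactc
Myl4: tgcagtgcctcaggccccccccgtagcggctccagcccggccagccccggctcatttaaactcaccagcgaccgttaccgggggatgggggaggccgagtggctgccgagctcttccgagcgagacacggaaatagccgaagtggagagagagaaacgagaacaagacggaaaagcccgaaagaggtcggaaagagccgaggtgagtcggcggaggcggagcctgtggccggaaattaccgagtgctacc
The Myl3 window held 1 CArG box and 2 MCAT elements, the Myl7 window 1 of each, and the Myh6 window 1 MCAT element. The Nppa and Myl4 windows held none of the capitalised motifs. The table had 40 windows for 33 of the genes. A CArG box lay in 7 of these 40 windows (17.5%) and in 1.47% of all 32851 promoter windows of the same length; its 6 genes were Acta1, Actc1, Ldb3, Myl3, Myl7 and Myom1. A MEF2 site lay in 3 windows (7.5%), those of Mybpc3, Myoz2 and Ttn, against 0.508% of all windows. CATTCC occurred in 20% of the windows against 12.6% of all, AGATAA in 17.5% against 9.99%, and the E-box CANNTG, which is not in capitals because it is frequent, in 90.0% against 66.2%. These are matches of letters and say nothing of binding.

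The libraries held 11746696 to 16447098 counts. Levels are given as counts per 1000000 counts of the library (CPM), with library sizes scaled by the TMM method, and 3 counts are worth 0.161 to 0.302 CPM. Fibroblast markers were the most abundant of the cell type lists in every library: 13 of them together gave 38958 to 57307 CPM in Tw2- and 63377 to 76280 CPM in Tw2+. The largest part came from Gsn alone, with 22362 to 32955 CPM in Tw2- and 35563 to 45188 CPM in Tw2+. The 37 cardiomyocyte genes other than Atp2a2, Cryab and Slc8a1 took 0.0182% to 0.214% of all counts. Twist2 itself had 2.41, 2.90 and 5.18 CPM in the Tw2- libraries and 7.35, 6.5 and 6.95 CPM in the Tw2+ libraries. It lay higher in Tw2+ without overlap but did not pass the test (log2 fold change 1.00, SE 0.34, adjusted p = 0.0738 by edgeR's quasi-likelihood test), and an antisense gene covers part of its exons (46.5% of its exonic length overlaps other genes).

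Most of the 40 genes were lower in Tw2+ than in Tw2-. Of 39 genes with enough counts to be tested (all but Sln), 27 fell in Tw2+ and 1, Cryab, rose, at an adjusted p under 0.05 by edgeR's quasi-likelihood test over all 13180 tested genes. The share of lower calls was 69.2% among the tested genes and 10.8% among all genes. Higher calls made up 7.41% of all genes. DESeq2 called 31 of 40 lower (12.8% of all genes) and limma-voom 26 of 39 (10.2%). In both, Cryab was the 1 gene called higher (10.2% and 5.65% of all genes). The median log2 fold change, Tw2+ over Tw2-, was -1.70 for the 39 genes and 0.002 for all tested genes. In 30 of the 40 genes every Tw2+ library lay below every Tw2- library, an ordering found in 19.2% of all genes, and in Myl4 and Cryab every Tw2+ library lay above, as in 18.2% of all genes. In bulk samples such as these, fewer cardiomyocytes or fragments of them and less RNA of these genes per cell cannot be told apart. The number of these genes called lower depended on single libraries. It was 13 with Tw2- 2 left out (6.48% of all genes were called lower in that fit), 13 with the unnumbered Tw2- library left out (10.5%) and 16 with the unnumbered Tw2+ library left out (6.53%). Leaving out Tw2- 3, Tw2+ 2 or Tw2+ 3 gave 22, 27 and 28 lower genes (6.1%, 6.13% and 21.4% of all genes). Other scalings shifted the balance of calls over all genes. Library size alone gave 13% lower and 3.07% higher calls over all genes, with 28 of these genes lower and Cryab higher. Scaling to the summed fibroblast markers, of which Gsn made up the largest part, gave 23.6% lower and 0.941% higher calls. In that fit 33 of these genes were lower and 0 higher.

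**Figure D1:**
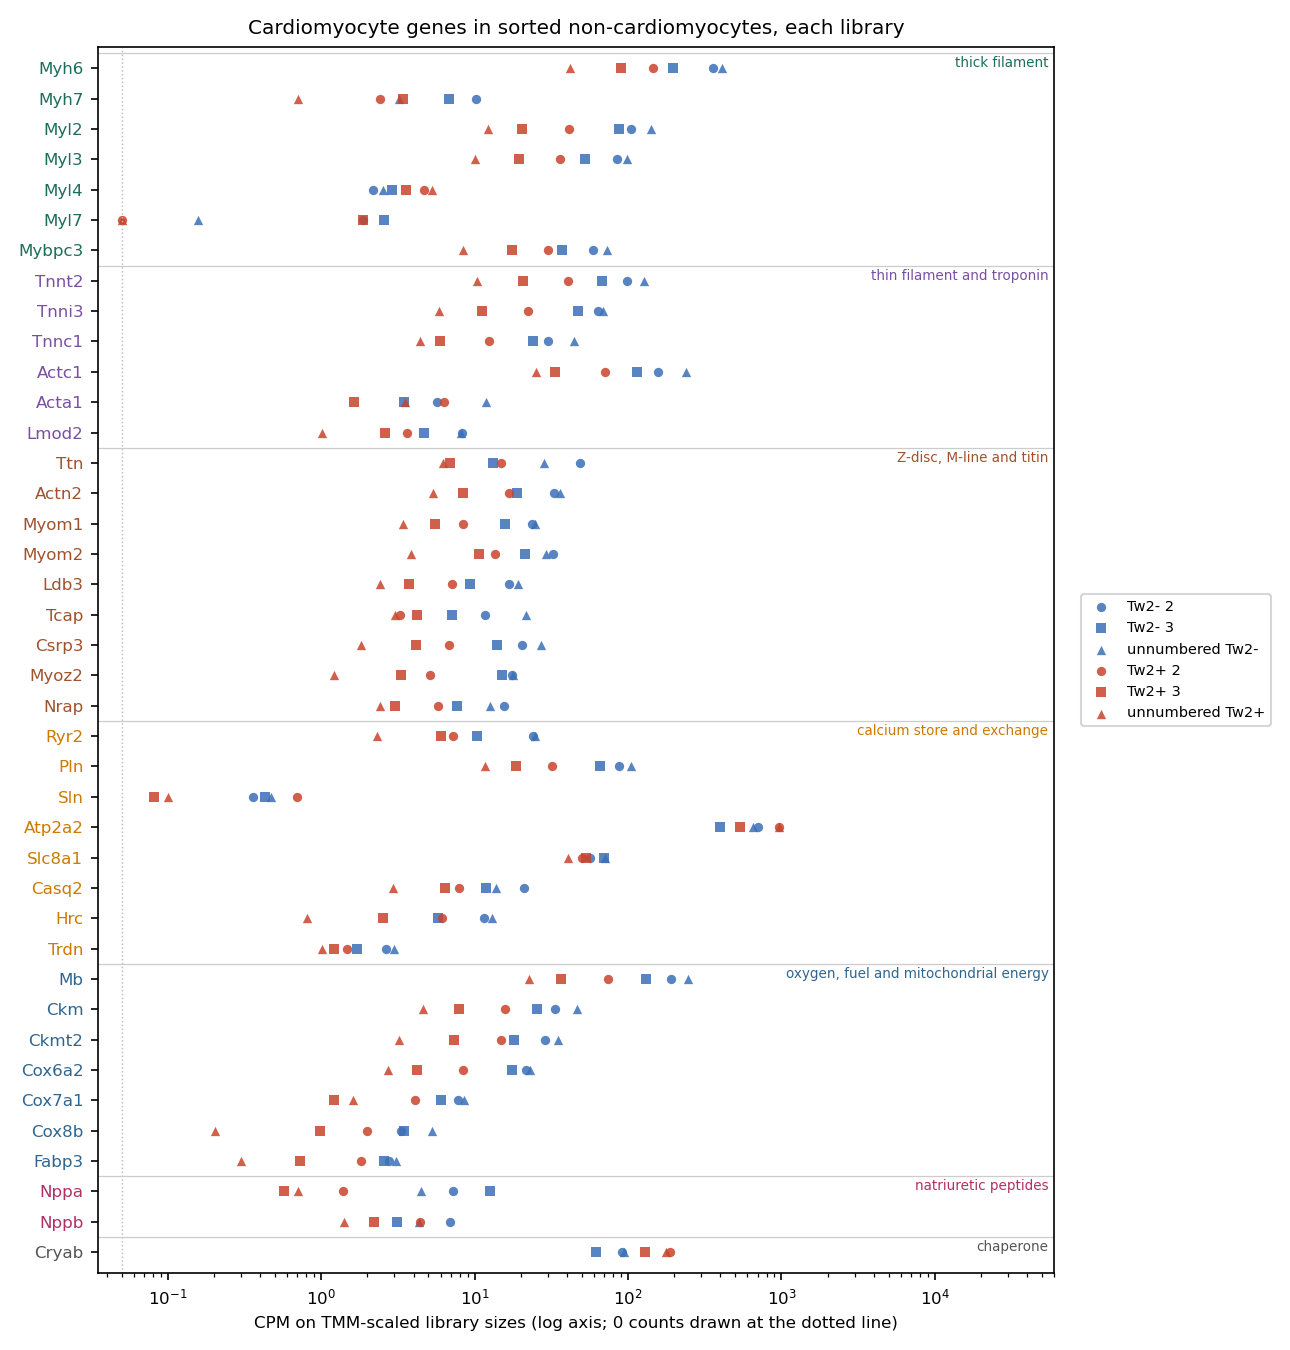
CPM of each of the 40 genes (log axis) in each of the 6 libraries, blue for Tw2- and red for Tw2+ (circles for library 2, squares for 3, triangles for unnumbered), with genes grouped by role and 0 counts drawn at the dotted line. For most genes the red points lie to the left of the blue ones, whereas Atp2a2, Slc8a1, Myl4 and Cryab sit close together or with the red points to the right.

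Among thick filament genes, 4 of 7 fell (57.1%, against 10.8% of all genes). They were the heavy chain gene Myh6, the ventricular light chain genes Myl2 and Myl3, and Mybpc3, which encodes the myosin-binding protein of the filament. Myh6, the main myosin heavy chain of the adult mouse heart, had 359, 195 and 408 CPM in Tw2- (libraries 2, 3 and unnumbered, the order used throughout), and 146, 90.0 and 42.0 CPM in Tw2+ (same order). The groups did not overlap, and the lowest Tw2+ value came from the unnumbered library. Myh6 was 3.46-fold lower in Tw2+ (log2 -1.79, SE 0.44, adjusted p = 0.0273 by edgeR). Myl2, the regulatory light chain of the ventricle, had 104, 87.9 and 141 CPM in Tw2- and 41.2, 20.4 and 12.2 CPM in Tw2+. Again every Tw2+ library was lower, with the same order of libraries within Tw2+, and the fall was 4.5-fold (log2 -2.17, SE 0.41, adjusted p = 0.00912). Myl3, the essential light chain of the ventricle, had 84.7, 52.1 and 98.2 CPM against 36.3, 19.4 and 10.1 CPM. Its log2 fold change of -1.83 and that of Mybpc3 of -1.60 had adjusted p values of 0.0234 and 0.0360.

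The other 3 thick filament genes behaved differently. Myh7, the slow heavy chain that predominates in the fetal ventricle of the mouse, had 10.2, 6.77 and 3.22 CPM in Tw2- and 2.42, 3.42 and 0.705 CPM in Tw2+. Its groups overlapped because the unnumbered Tw2- library lay just below Tw2+ 3, and it did not pass (log2 -1.61, adjusted p = 0.0796). Myh7 passed in 6 of 17 alternative runs, among them that without Tw2+ 3 (adjusted p = 0.0254). Myh6 and Myh7 are close copies lying next to each other on chromosome 14, and whether any reads of Myh6 were counted for Myh7 was not tested. The atrial light chain Myl7 had 31, 48 and 2 counts in Tw2- and 0, 23 and 0 counts in Tw2+, and the atrial essential light chain Myl4 had 2.17, 2.90 and 2.51 CPM in Tw2- and 4.67, 3.58 and 5.24 CPM in Tw2+. Nearly all Myl7 counts thus came from Tw2- 2, Tw2- 3 and Tw2+ 3, with 2 more in the unnumbered Tw2- library, while Myl4 was detected in all 6 libraries and was higher in each Tw2+ library than in any Tw2- library. Neither passed over all genes (adjusted p = 0.475 for Myl7 and 0.0928 for Myl4), and both did without Tw2+ 3 (0.0223 for Myl7, with both remaining Tw2+ libraries at 0 counts, and 0.0415 for Myl4, higher in Tw2+). Among the called genes of the group, Myl2 passed in all 6 fits that left out 1 library. Myh6, Myl3 and Mybpc3 lost the call when either Tw2- 2 or the unnumbered Tw2- library was left out, and Mybpc3 also when the unnumbered Tw2+ library was (adjusted p 0.0595 to 0.0882 in these fits).

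In the thin filament and troponin group, 5 of 6 genes fell (83.3%, against 10.8% of all genes), and the median log2 value of the 6 was -2.01. Troponin I (Tnni3), the inhibitory subunit, had 64.0, 47.4 and 68.8 CPM in Tw2- and 22.2, 11.2 and 5.84 CPM in Tw2+. The lowest Tw2- library lay above the highest Tw2+ library, and Tnni3 was 4.57-fold lower in Tw2+ (log2 -2.19, SE 0.43, adjusted p = 0.0102 by edgeR). Troponin T (Tnnt2), which anchors the complex to tropomyosin, had 98.9, 67.3 and 127 CPM against 40.4, 20.7 and 10.4 CPM, and the calcium-binding subunit troponin C (Tnnc1) had 30.2, 23.9 and 44.5 CPM against 12.5, 5.94 and 4.43 CPM. The 3 subunits thus shifted by similar amounts, with log2 fold changes of -2.03 for Tnnt2 (adjusted p = 0.0185) and -2.10 for Tnnc1 (adjusted p = 0.0103). Cardiac actin (Actc1) had 157, 114 and 239 CPM in Tw2- and 70.6, 33.3 and 25.3 CPM in Tw2+. It fell by 1.98 on the log2 scale (adjusted p = 0.0140), and Lmod2, a leiomodin that lengthens thin filaments, fell by 1.53 (adjusted p = 0.0492). Skeletal actin (Acta1), which adult heart expresses at a low level, had 5.67, 3.44 and 11.9 CPM in Tw2- and 6.31, 1.63 and 3.53 CPM in Tw2+. Its groups overlapped and it did not pass (log2 -0.87, adjusted p = 0.296). Its protein is nearly the same as that of Actc1, and whether any reads were shared between these genes was not tested. Tnni3, Tnnc1 and Actc1 passed in every fit that left out 1 library, Tnnt2 missed the threshold without Tw2- 2 (adjusted p = 0.0506), and Lmod2 passed only in the fit without Tw2+ 3, with adjusted p between 0.0621 and 0.122 in the other 5. Lmod2 also missed the threshold with limma-voom, with RLE or upper-quartile scaling and with a stricter filter on counts (adjusted p 0.0508 to 0.0555).

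All 9 genes of the Z-disc, the M-line and titin fell, against 10.8% of all genes, with log2 fold changes from -2.37 to -1.53. Myoz2, which encodes the calcineurin-binding Z-disc protein calsarcin-1, had 17.5, 15.0 and 17.8 CPM in Tw2- and 5.10, 3.33 and 1.21 CPM in Tw2+. The Tw2- libraries lay within a narrow range (16.8 ± 1.55 CPM, SD, n = 3) well above those of Tw2+ (3.21 ± 1.95 CPM), and Myoz2 was 5.17-fold lower in Tw2+ (SE of log2 0.43, adjusted p = 0.00766 by edgeR). Csrp3, the muscle LIM protein, had 20.3, 14.0 and 26.9 CPM against 6.83, 4.15 and 1.81 CPM and fell by 2.25 on the log2 scale (adjusted p = 0.0121). The myomesins of the M-line, Myom1 and Myom2, fell by 1.88 (adjusted p = 0.00844) and 1.56 (adjusted p = 0.0339). Telethonin (Tcap), which caps titin at the Z-disc, had 11.7, 7.15 and 21.5 CPM in Tw2- and 3.28, 4.23 and 3.02 CPM in Tw2+. Tcap was the gene of this group whose Tw2+ values did not peak in Tw2+ 2, and its fall of 1.93 had an adjusted p of 0.0168. Alpha-actinin 2 (Actn2), the main crosslinker of the Z-disc, had a log2 fold change of -1.53, the PDZ-LIM protein gene Ldb3 of -1.75 and Nrap, an actin-binding protein of the intercalated disc, of -1.67 (all lower in Tw2+, adjusted p 0.0261 to 0.0388).

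Titin is the elastic protein that spans the sarcomere from Z-disc to M-line. Its gene Ttn has by far the largest exonic length here (116825 bases, with all annotated exons merged). It had 48.4, 13.1 and 28.2 CPM in Tw2- and 14.8, 6.91 and 6.25 CPM in Tw2+. It was the only called gene among the 28 whose groups overlapped, since Tw2+ 2 exceeded Tw2- 3, and its log2 fold change was -1.68 (SE 0.50, adjusted p = 0.0478). Ttn lost the call without Tw2- 2, without Tw2+ 3 and without either unnumbered library (adjusted p 0.0523 to 0.142), and with limma-voom, RLE scaling or a stricter filter (0.0528 to 0.0728). Of the other Z-disc and M-line genes, Myoz2, Csrp3 and Myom1 passed in all 6 fits that left out 1 library. Actn2, Ldb3 and Nrap each lost the call when Tw2- 2 or either unnumbered library was left out, Myom2 without any of the Tw2- libraries, and Tcap when Tw2+ 2 or the unnumbered Tw2+ library was left out (adjusted p 0.0552 to 0.0981).

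The calcium genes divided. Of 8, 3 fell (Ryr2, Pln and Casq2), which is 42.9% of the 7 tested, against 10.8% of all genes. Another 4 did not pass (Atp2a2, Slc8a1, Hrc and Trdn), and Sln was too low to test. Phospholamban (Pln), the brake on SERCA2, had 86.7, 65.9 and 105 CPM in Tw2- and 31.9, 18.5 and 11.7 CPM in Tw2+. All Tw2+ libraries were lower, by 4.13-fold in the fit (log2 -2.05, SE 0.36, adjusted p = 0.00609 by edgeR), and 64.7% of its exonic length overlaps other genes, mainly on the opposite strand. The calcium release channel Ryr2 had 24.2, 10.4 and 24.7 CPM against 7.26, 6.02 and 2.32 CPM, a log2 fold change of -1.92 (adjusted p = 0.0258). Calsequestrin 2 (Casq2), the calcium buffer of the store, had 20.9, 11.9 and 13.7 CPM against 7.86, 6.42 and 2.92 CPM, a log2 fold change of -1.42 (adjusted p = 0.0374). Pln passed whichever library was left out, Ryr2 missed without Tw2- 2 and without either unnumbered library (0.0536 to 0.0781), and Casq2 passed only without Tw2+ 3 (0.0552 to 0.109 in the other 5).

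Atp2a2, the calcium pump that Pln controls, did not follow Pln. It had 708, 395 and 655 CPM in Tw2- and 962, 540 and 967 CPM in Tw2+. The groups overlapped, with the lowest value of either group in the library numbered 3, and the log2 fold change was 0.49 (SE 0.31, adjusted p = 0.284), or -0.064 when libraries were scaled to the fibroblast markers. The gene makes a muscle form and a broadly expressed form of the pump, which counts per gene do not separate. Slc8a1, the sodium-calcium exchanger of the cell membrane, had 56.1, 70.1 and 70.6 CPM in Tw2- and 50, 53.6 and 40.9 CPM in Tw2+. Its Tw2+ values were lower without overlap, but by little (log2 -0.45, SE 0.19, adjusted p = 0.131), and with fibroblast scaling it passed (adjusted p = 0.0207). The junctional protein triadin (Trdn) had 2.65, 1.72 and 2.98 CPM against 1.47, 1.22 and 1.01 CPM, and Hrc, a calcium-binding protein of the store, had 11.5, 5.75 and 13 CPM against 6.14, 2.52 and 0.806 CPM (log2 -0.98 and -1.66, adjusted p = 0.102 and 0.0859). Hrc passed in 5 of 18 alternative runs, among them that without Tw2+ 2 (adjusted p = 0.0349). Sarcolipin (Sln) had 6, 8 and 6 counts in Tw2- and 8, 1 and 1 counts in Tw2+, too few for any comparison of levels.

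Of the 7 genes of oxygen, fuel and mitochondrial energy, 5 fell (71.4%, against 10.8% of all genes). In all 7 every Tw2+ library lay below every Tw2- library, as in 19.2% of all genes. Myoglobin (Mb), the oxygen store of muscle, had 192, 131 and 246 CPM in Tw2- and 74.6, 36.5 and 22.6 CPM in Tw2+. It was 4.25-fold lower in Tw2+ (log2 -2.09, SE 0.43, adjusted p = 0.0128 by edgeR), with 31.9% of its exonic length overlapping other genes. Muscle creatine kinase (Ckm) had 33.2, 25.7 and 46.7 CPM against 15.9, 7.97 and 4.63 CPM, and its mitochondrial counterpart Ckmt2 had 28.7, 18.1 and 35 CPM against 14.8, 7.32 and 3.22 CPM. They fell by 1.88 and 1.68 on the log2 scale (adjusted p = 0.0202 and 0.0452). Cox6a2 and Cox7a1 encode muscle forms of cytochrome c oxidase subunits. Cox6a2 had 21.7, 17.4 and 23.0 CPM against 8.38, 4.23 and 2.72 CPM and fell by 2.01 (adjusted p = 0.01), and Cox7a1 fell by 1.70 (adjusted p = 0.0345). Cox8b, another muscle subunit, had 3.32, 3.44 and 5.26 CPM against 1.99, 0.976 and 0.202 CPM, and the fatty acid-binding protein Fabp3 had 2.77, 2.58 and 3.06 CPM against 1.81, 0.732 and 0.302 CPM. Neither passed (adjusted p = 0.0568 and 0.0774), and both did without Tw2+ 2 (0.0415 and 0.0376). Cox8b gained the call in 6 of 18 alternative runs and Fabp3 in 3 of 17. Mb and Cox6a2 passed whichever library was left out, Ckm missed without the unnumbered Tw2- library (0.0534), and Ckmt2 and Cox7a1 missed without any Tw2- library and without the unnumbered Tw2+ library (0.0702 to 0.107). Ckmt2 also missed with RLE scaling (0.0522) and with the stricter filter (0.0501).

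Several of these muscle genes have a partner gene of the same family that other cell types use, and the partners were mixed. Of 10 tested partners, 0 passed in edgeR, against 10.8% lower and 7.41% higher calls over all genes. At an unadjusted p under 0.05 in edgeR, 2 were lower and 2 higher. Of all 13180 tested genes, 4842 had such a p in either direction. DESeq2 called 2 of 11 partners lower (12.8% of all genes) and limma-voom 1 of 10 (10.2%). The median log2 fold change of the 10 partners in edgeR was 0.16. The ubiquitous cytochrome oxidase subunit Cox6a1 had a log2 fold change of 0.10, Cox7a2 of 0.63 and Cox8a of 0.42 (adjusted p = 0.702, 0.0973 and 0.131). Brain-type creatine kinase Ckb (0.31), nonmuscle myosin Myh9 (-0.086), the actinin Actn4 (0.22) and beta-actin Actb (0.22) did not pass either. Per kilobase of exonic length, Cox6a2 made up 35.9%, 28.2% and 33.7% of the sum of Cox6a2 and Cox6a1 in the Tw2- libraries and 14.4%, 8.78% and 5.82% in the Tw2+ libraries. The muscle share was lower in every Tw2+ library for Cox7a1 with Cox7a2 as well (37.8%, 33.2% and 33.8% against 14.6%, 7.13% and 6.02%). For Ckm with Ckb it was 21.4%, 15.8% and 23.3% against 8.14%, 4.56% and 2.71%. The pair Fabp3 and Fabp4 did not show this, with Fabp3 at 3.16% to 13.6% of the sum in Tw2- and 3.02% to 21.1% in Tw2+. Fabp4, which is also a capillary endothelial gene, had a log2 fold change of -2.38 (adjusted p = 0.0536). Atp2a2 took 89.7% to 96.1% of the sum with Atp2a3 in Tw2- and 94.9% to 98.2% in Tw2+. Of the remaining partners, Myl9 was lower in every Tw2+ library than in any Tw2- library (log2 -0.75, adjusted p = 0.0648) and Atp2a3 had a log2 value of -0.58 (adjusted p = 0.183). Neither passed, and Ckmt1 was too low to test.

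The natriuretic peptide genes differed from each other. Nppa, the atrial natriuretic peptide gene, had 7.24, 12.6 and 4.48 CPM in Tw2- (120, 234 and 57 counts) and 1.38, 0.569 and 0.705 CPM in Tw2+ (16, 7 and 7 counts). Its highest level was in Tw2- 3, where Myh6, Myl2 and most sarcomere genes were at their lowest among Tw2- libraries. Nppa had the largest fall of the 40 genes, 9.08-fold (log2 -3.18, SE 0.51, adjusted p = 0.00394 by edgeR), and passed whichever library was left out. Other genes overlap 61.5% of its exonic length, mainly on the opposite strand. Nppb, which encodes the B-type peptide, had 6.94, 3.12 and 4.32 CPM against 4.41, 2.20 and 1.41 CPM, with overlap between the groups (log2 -0.83, SE 0.48, adjusted p = 0.234). Nppa and Nppb lie next to each other on chromosome 4.

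Cryab, the small heat shock protein alpha-B crystallin, which binds desmin and titin in heart muscle, was the 1 gene that rose. It had 91.9, 62.1 and 94.2 CPM in Tw2- and 188, 129 and 176 CPM in Tw2+. The groups did not overlap, and the fitted increase was 1.98-fold (log2 0.99, SE 0.23, adjusted p = 0.0234 by edgeR). The call was lost without Tw2- 2 (adjusted p = 0.0539), Tw2- 3 (0.112), Tw2+ 2 (0.0973) or the unnumbered Tw2+ library (0.0663). With scaling to the fibroblast markers the log2 value was 0.45 (adjusted p = 0.281). Hspb2, its neighbour on the opposite strand, shares exonic sequence with it (17.0% of the exonic length of Cryab overlaps other genes).

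**Figure D2:**
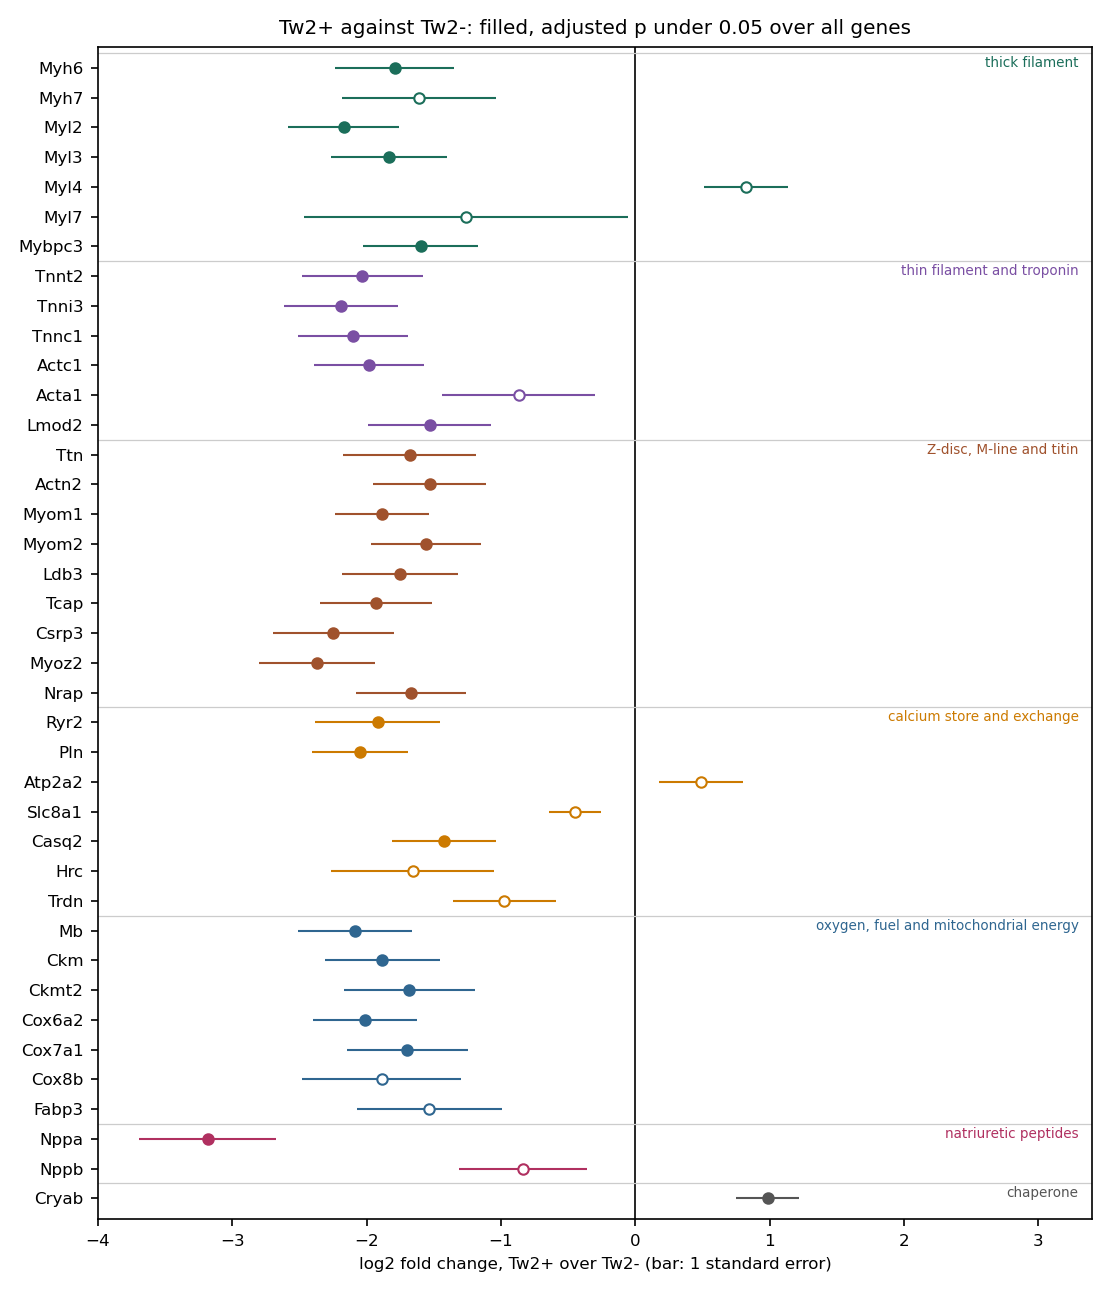
Log2 fold change, Tw2+ over Tw2-, of the 39 tested genes with 1 standard error, grouped by role; filled points passed at an adjusted p under 0.05 over all genes. Filled points lie between -3.18 (Nppa) and -1.42 (Casq2), except for Cryab at 0.99.

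Counted per length, the ranking of the genes differed between the groups. The length is that of all annotated exons of a gene merged. It can exceed that of any single transcript and so place a gene lower. In Tw2-, mean levels per kilobase were highest for Mb (127 CPM per kb), Actc1 (105), Atp2a2 (96.4), Myl2 (56.9), Cryab (55.9) and Myh6 (47.6). In Tw2+ they were highest for Atp2a2 (135) and Cryab (111), followed by Mb (29.9) and Actc1 (26.6). At the low end in Tw2- were Ttn (0.256), Trdn (0.262), Sln (0.319) and Myl4 (0.545). Not all neighbours in these rankings can be told apart: Myl2 (111 ± 27.2 CPM, SD, n = 3) and Cryab (82.7 ± 17.9 CPM) in Tw2- differed per kilobase by less than their spread between libraries.

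Expressed relative to Myl2 within each library, which removes the scaling between libraries, some of the genes kept a nearly fixed proportion. Mb gave 184, 149 and 175 counts per 100 Myl2 counts in Tw2- and 181, 179 and 185 in Tw2+, although Myl2 itself ranged from 12.2 to 141 CPM. Tnni3 gave 61.4, 53.9 and 48.8 against 53.9, 55.0 and 47.9, and Pln gave 83.2, 75.0 and 74.2 against 77.4, 90.8 and 95.9. The 6 libraries thus held these 3 transcripts in similar proportions, within Tw2+ as well as between the groups. For 15 of the other 39 genes the highest library was no more than 2-fold above the lowest: Myh6, Myl3, Tnnt2, Tnni3, Tnnc1, Actc1, Myom1, Ldb3, Csrp3, Myoz2, Pln, Mb, Ckm, Ckmt2 and Cox6a2. For 23 of the 39 the group means lay within 1.5-fold of each other. These ratios are a description without a test.

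The other genes varied more, and those with the largest shifts between the groups were Cryab, Myl4, Atp2a2 and Slc8a1. Cryab gave 88.2, 70.7 and 66.9 counts per 100 Myl2 counts in Tw2- and 456, 630 and 1440 in Tw2+. Atp2a2 gave 680, 450 and 464 against 2330, 2640 and 7930, and Slc8a1 gave 53.9, 79.8 and 50.1 against 121, 263 and 336. For Cryab, Atp2a2 and Slc8a1, the highest ratio belonged to the unnumbered Tw2+ library, where Myl2 was lowest. Acta1 gave 5.44, 3.91 and 8.47 against 15.3, 7.97 and 28.9, Trdn gave 2.55, 1.96 and 2.12 against 3.56, 5.98 and 8.26, and Nppb gave 6.66, 3.55 and 3.06 against 10.7, 10.8 and 11.6. All these ratios contain the fall of Myl2 in Tw2+ (log2 -2.17). In CPM, Slc8a1, Acta1, Trdn and Nppb were themselves fitted lower in Tw2+ (log2 -0.45, -0.87, -0.98 and -0.83), and none of them passed. Ttn varied within Tw2- (46.4, 14.9 and 20) more than between the group means (27.1 in Tw2- and 40.3 in Tw2+). Ryr2, the gene with the largest exonic length after Ttn, varied in the same way, with 23.2, 11.9 and 17.5 in Tw2- and 17.6, 29.5 and 19.0 in Tw2+.

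**Figure D3:**
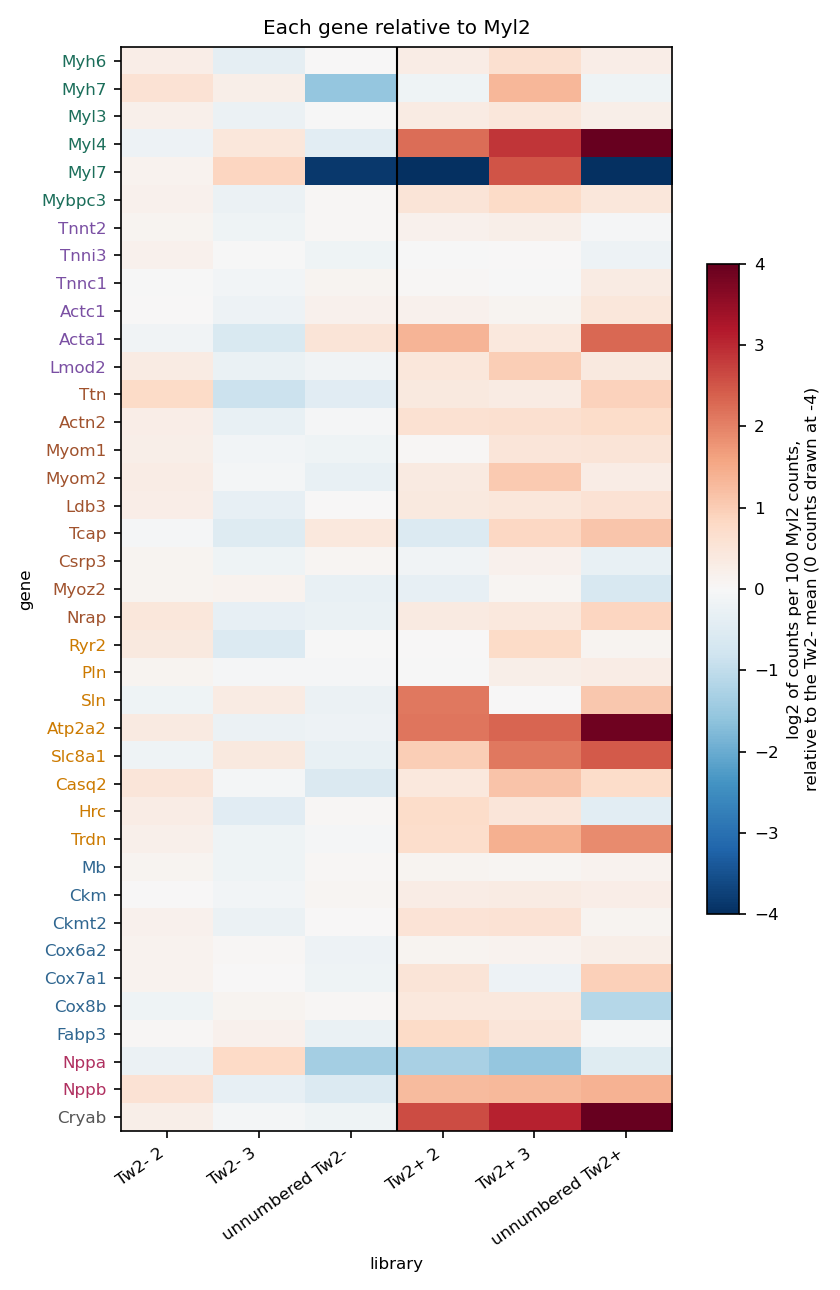
Counts of each gene per 100 Myl2 counts in each library (columns), as log2 relative to the Tw2- mean of the gene, with gene names coloured by role; 0 counts are drawn at -4. Rows such as Mb, Tnni3 and Pln stay pale across the 6 libraries, whereas Cryab, Atp2a2, Slc8a1 and Myl4 are red in the Tw2+ libraries and Myl7 alternates between extremes. Each ratio contains the fall of Myl2 in Tw2+, so that a red row need not be a gene with a higher CPM there.

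The atrial genes were compared with ventricular Myl2 in each library. Summed, the ventricular light chains Myl2 and Myl3 gave 189, 140 and 239 CPM in Tw2- and 77.5, 39.8 and 22.3 CPM in Tw2+. The 4 atrial genes Myl4, Myl7, Nppa and Sln gave 11.6, 18.5 and 7.62 CPM against 6.74, 6.10 and 6.04 CPM. Among the Tw2- libraries, the atrial sum was therefore highest in Tw2- 3, where the ventricular sum was the lowest, and lowest in the unnumbered library, where the ventricular sum was the highest. Within Tw2+, where the ventricular sum fell from Tw2+ 2 to the unnumbered library, the atrial sum was nearly level, and Myl4 made up most of it: without Myl4 the sum was 2.07, 2.52 and 0.806 CPM.

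The log2 ratio of Myl4 to Myl2 was -5.42 ± 0.458 (SD, n = 3) in Tw2- and -2.28 ± 0.979 in Tw2+, a difference of 3.14 with every Tw2+ library above every Tw2- library (exact two-sided permutation p = 0.1, adjusted over the 4 atrial genes 0.2). With 3 libraries against 3, 0.1 is the smallest p this test can give. The ratio contains the fall of its denominator. In edgeR Myl2 had a log2 fold change of -2.17 (adjusted p = 0.00912), and Myl4 had 0.82 and did not pass (adjusted p = 0.0928). The ratio of Sln to Myl2 was also higher in every Tw2+ library (difference 1.40, exact permutation p = 0.1, adjusted 0.2), but rests on 1 to 8 counts of Sln per library. Sln itself had 0.362, 0.430 and 0.471 CPM in Tw2- and 0.691, 0.0813 and 0.101 CPM in Tw2+. Without the added 0.5 counts, Sln per 100 Myl2 counts was lower in Tw2+ 3 (0.398) than in Tw2- 3 (0.489). Nppa did not separate the groups by this ratio, with a difference of -0.78 (exact permutation p = 0.3, adjusted 0.4). Its counts per 100 Myl2 counts were 6.95, 14.3 and 3.18 in Tw2- and 3.35, 2.79 and 5.79 in Tw2+, so that Tw2- 3 stood highest and the groups overlapped. Myl7 was the most uneven, at 1.80, 2.94 and 0.111 per 100 Myl2 counts in Tw2- and 0, 9.16 and 0 in Tw2+. Its ratio was highest in Tw2+ 3 and then in Tw2- 3 (difference of groups -0.30, exact permutation p = 0.9, adjusted 0.9), and the sign of that difference turned when any of Tw2- 2, Tw2- 3, Tw2+ 2 or the unnumbered Tw2+ library was left out (0.12 to 1.11). The atrial genes thus did not keep a fixed proportion to one another: the library with the most Myl7 per Myl2, Tw2+ 3, had the fewest Nppa counts per Myl2.

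**Figure D4:**
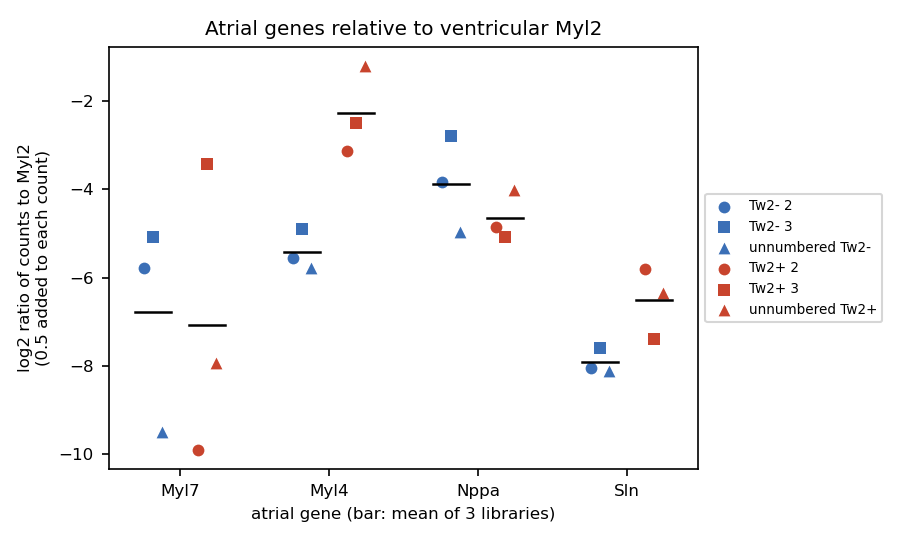
Log2 ratio of the counts of each atrial gene to those of Myl2 (0.5 added to each count) in each library, with the mean of 3 libraries as a bar. Myl4 is higher in the 3 Tw2+ libraries, Nppa overlaps, and Myl7 is spread from -9.90 to -3.42 within Tw2+.

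Further chamber genes gave few calls; the ventricular list among them also holds Myh7, which is 1 of the 40. Of 6 tested atrial genes, 1 fell (16.7%, against 10.8% of all genes). The gene was Kcnj5, a subunit of the acetylcholine-activated potassium channel. It had 1.21, 0.752 and 1.81 CPM in Tw2- and 0.346, 0.325 and 0.403 CPM in Tw2+ (log2 -1.77, adjusted p = 0.0440 by edgeR). Each Tw2+ library held only 4 counts of Kcnj5. On the atrial list DESeq2 called 1 of 8 lower (12.8% of all genes) and limma-voom 0 of 6 (10.2%). The potassium channel gene Kcna5 had 31.3, 31.1 and 9.03 CPM against 3.20, 14.6 and 1.91 CPM (adjusted p = 0.102), with the groups overlapping. The summed vascular endothelial markers ranked the libraries in the same order (2256, 2222 and 712 CPM against 343, 836 and 258 CPM). Which cells the Kcna5 counts came from was not tested. Dkk3 and Nr2f2, the latter a transcription factor of atrial identity that other cell types also express, had log2 values of 0.47 and 0.41 and did not pass (adjusted p = 0.281 and 0.176). Of 3 tested ventricular genes (Hey2, Kcnip2 and Myh7), Hey2, a repressor of atrial genes, had a log2 value of -1.15 (adjusted p = 0.0841). None of the 3 passed in edgeR. All 3 had an unadjusted p under 0.05 with lower values in Tw2+. Of all 13180 tested genes, 4842 had such a p in either direction. DESeq2 called 1 of 4 lower (12.8% of all genes), and limma-voom 0 (10.2%).

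A wider list of 66 cardiomyocyte genes moved less uniformly than the 40. Of its 59 tested genes, 16 fell (27.1%, against 10.8% of all genes) and 0 rose in edgeR, with a median log2 fold change of -0.74. DESeq2 called 12.8% of all genes lower and 10.2% higher, and limma-voom 10.2% lower and 5.65% higher. At an unadjusted p under 0.05 in edgeR, 30 were lower and 4 higher. Of all 13180 tested genes, 4842 had such a p in either direction. DESeq2 called 3 of these 4 higher, Jph1, Ank2 and Cacna2d1, and limma-voom 0. Among sarcomere and Z-disc genes 8 of 18 fell, led by Tmod1, the cap of the thin filament (log2 -2.18, adjusted p = 0.000895, with 32.6% of its exonic length overlapping other genes), and Smpx, a small muscle protein (log2 -2.25, adjusted p = 0.00609). Tpm1, whose tropomyosin is also made by nonmuscle cells, had 265, 230 and 327 CPM in Tw2- and 205, 160 and 167 CPM in Tw2+ and did not pass (adjusted p = 0.0667), and the Z-disc protein gene Pdlim5 had a log2 value of 0.37 (adjusted p = 0.233).

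Among 18 tested genes of calcium handling and excitation, 4 fell (22.2%, against 10.8% of all genes). They included S100a1, a calcium sensor that acts on SERCA2 and Ryr2 (log2 -1.30, adjusted p = 0.0256 by edgeR). Kcnj2, an inward rectifier channel, was another (log2 -1.13, adjusted p = 0.0308). The most abundant genes of that list did not pass: Asph, which shares its locus with the junctional protein junctin, had a log2 value of 0.078 (adjusted p = 0.784), and the membrane anchor Ank2 had 47.7, 44.2 and 54.7 CPM against 76.9, 62.9 and 76.5 CPM (log2 0.56, adjusted p = 0.0636). Of 13 energy genes 3 fell (23.1%), among them Adprhl1 (log2 -2.14, adjusted p = 0.0102) and the muscle enolase Eno3 (log2 -1.26, adjusted p = 0.0174). The ADP/ATP carrier gene Slc25a4 had a log2 value of -0.096 (adjusted p = 0.769). Of 10 transcription and splicing factors 1 fell (10.0%, close to the 10.8% of all genes). It was Mef2c, from 75.2, 96.9 and 47.8 CPM in Tw2- to 19.1, 29.3 and 17.8 CPM in Tw2+ (log2 -1.73, adjusted p = 0.00655). Mef2c is also expressed in endothelial cells and macrophages. Mef2a, Tbx20 and Rbm24 had log2 values of -0.28, -0.18 and -1.32 and did not pass (adjusted p = 0.364, 0.674 and 0.0922). The number of genes of this wider list called lower was 5 without Tw2- 2 (6.48% of all genes in that fit). It was 8 without Tw2- 3 (6.1%), without the unnumbered Tw2- (10.5%) or without the unnumbered Tw2+ library (6.53%).

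Other cell types differed between the groups at the same time. All 40 genes together summed to 2511, 1611 and 2797 CPM in Tw2- and 1880, 1100 and 1398 CPM in Tw2+, and the groups overlapped, since Tw2+ 2 lay above Tw2- 3. The 37 cardiomyocyte genes other than Atp2a2, Cryab and Slc8a1, a subset taken after their values were seen, summed to 1655, 1084 and 1977 CPM in Tw2- and 680, 378 and 215 CPM in Tw2+. Atp2a2, Cryab and Slc8a1 summed to 856, 528 and 819 CPM in Tw2- and 1200, 722 and 1183 CPM in Tw2+. Among Tw2- libraries, 27 of the 37 genes had their highest value in the unnumbered library, 7 in Tw2- 2 and 3 in Tw2- 3. Among Tw2+ libraries, 33 had their highest value in Tw2+ 2 and 31 their lowest in the unnumbered library. The 9 macrophage markers summed to 4051, 5198 and 2300 CPM in Tw2- and 190, 278 and 110 CPM in Tw2+. Of these, 9 of 9 were called lower (median log2 -4.36), as were 10.8% of all genes. The 10 vascular endothelial markers summed to 2256, 2222 and 712 CPM against 343, 836 and 258 CPM, with 4 of 10 called lower (median log2 -2.32). The unnumbered Tw2- library, which held the most cardiomyocyte transcripts, thus held the fewest macrophage and endothelial transcripts of the Tw2- libraries, and Tw2+ 3, which held the most of both within Tw2+, was not the highest there for the cardiomyocyte genes. The 13 fibroblast markers had a median log2 fold change of 0.67, with 1 of 13 called higher, near the 7.41% of all genes. In 8 of the 13 every Tw2+ library lay above every Tw2- library, as in 18.2% of all genes. DESeq2 called 6 of the 13 higher (10.2% of all genes) and limma-voom 1 (5.65%). The part of these other cell types in the cardiomyocyte result was not tested.

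Markers of smooth muscle, pericytes and skeletal muscle were summed in the same way. The 8 smooth muscle markers summed to 198, 206 and 206 CPM in Tw2- and 192, 191 and 183 CPM in Tw2+. Smtn alone gave 100, 119 and 145 CPM of this in Tw2- and 123, 132 and 120 CPM in Tw2+. Of 7 tested, 2 were called lower (28.6%, against 10.8% of all genes). The 8 pericyte markers summed to 725, 499 and 380 CPM in Tw2- and 599, 540 and 672 CPM in Tw2+. Their median log2 fold change was -0.97, and 7 of 8 were fitted below 0, as were 49.9% of all genes. Only Pdgfrb was called higher (log2 0.84, adjusted p = 0.0344 by edgeR), as were 7.41% of all genes. Pdgfrb had 268, 246 and 252 CPM in Tw2- and 460, 349 and 566 CPM in Tw2+. The 11 skeletal muscle markers summed to 202, 194 and 134 counts in Tw2- and 155, 144 and 69 counts in Tw2+. The fast myosins Myh1, Myh2 and Myh4, Pvalb and Myod1 each had between 0 and 2 counts per library. Of the skeletal list, 4 genes could be tested and 0 passed in edgeR, 0 at an unadjusted p under 0.05 and 0 in DESeq2. Of the erythroid markers, the globin genes were listed at 0 in all libraries, and Alas2 had 24.5, 66.4 and 92.6 CPM in Tw2- and 0.173 to 0.302 CPM in Tw2+. The table held no gene of the mitochondrial genome, so that RNA quality could not be judged from these transcripts.

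**Figure D5:**
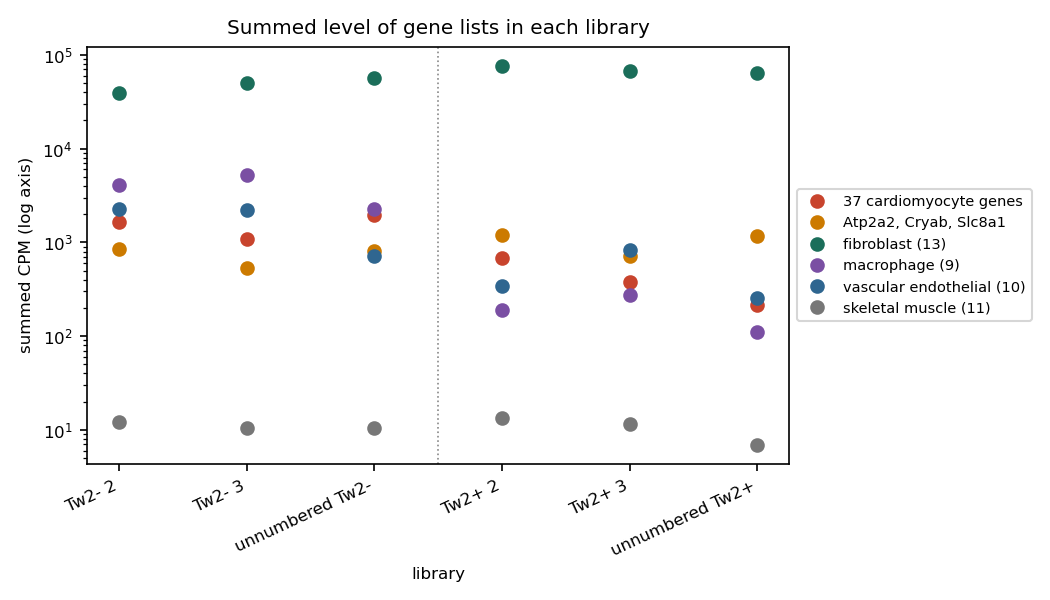
Summed CPM (log axis) of the cardiomyocyte genes and of marker lists of other cell types in each library, with the number of genes of each list in brackets. The 37 cardiomyocyte genes lie at 1084 to 1977 CPM in Tw2- and 215 to 680 CPM in Tw2+, between the macrophage and the skeletal muscle markers in the Tw2- libraries, while Atp2a2, Cryab and Slc8a1 stay between 528 and 1200 CPM.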

How the data were processed

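Bulk RNA-seq of sorted Tw2+ and Tw2- non-cardiomyocytes was analysed from the counts that the authors deposited, whole-number read counts per gene symbol for 6 libraries. The submitters' processing notes name the builds GRCm38 and mm10, TopHat2 2.0.0 and, separately, DESeq2 1.6.3, without a role. The program, strand setting and annotation of the counting step were not given in the sources used here. Without the strand setting, reads of genes that overlap on opposite strands cannot be told apart, and close copies may share reads. Among the 40 genes, 8 overlap other genes over at least 10% of their exonic length (Pln, Nppa, Mb, Fabp3, Cryab, Ckm, Myh7 and Cox6a2). Single-cell data that the design text mentions were not analysed here. All value columns were used.

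The test was edgeR's quasi-likelihood test (edgeR 4.0.16, R 4.3.3) with TMM factors, on all 6 libraries without covariates. The filterByExpr filter, set to a minimum count of 10, kept 13180 of 24062 symbols. Of these, 1419 were called lower and 976 higher in Tw2+ at a Benjamini-Hochberg adjusted p under 0.05. The common biological coefficient of variation was 27.6%. The design text describes the 3 libraries of a group as biological replicates, and the p-values measure the spread between them. CPM use the TMM-scaled library sizes, log2 fold changes are Tw2+ over Tw2-, and the standard error is the log2 fold change divided by the square root of the F statistic. Atrial ratios are log2((count + 0.5) over (Myl2 count + 0.5)), tested by exact permutation of the libraries. The script was tested on simulated counts.

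The 40 genes, the further lists, the isoform partners and the marker lists were chosen with earlier results of these data known. From each further list the 2 tested genes with the smallest adjusted p and the 2 with the highest mean CPM are named. A gene that the rule selects is not reported here. Jph1, Cacna2d1 and the genes singled out among the markers are exceptions, chosen with their values in view. Alternatives were DESeq2 1.42.0, limma-voom (limma 3.58.1), RLE, upper-quartile, library-size and fibroblast-marker scaling, no filter, a stricter filter (50 counts or more in 3 libraries), a threshold of 0.01, a robust dispersion fit, a block for the replicate number, each library left out, and Tw2+ 3 left out together with the unnumbered Tw2- library. Positions, exonic lengths and overlaps come from GENCODE on GRCm38, which held all 40 symbols, and promoters from a RefSeq table on GRCm38.p6. Exonic lengths merge the exons of all annotated transcripts of a gene.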

Additional observations from a re-analysis of the deposited data

How the results depend on the processing

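No call of a lower gene among the 40 turned its direction under any alternative run. Over the 698 results of single genes under alternatives, 585 kept direction and call, 86 lost the call, 25 gained it and 2 turned sign without a call: Atp2a2 with fibroblast scaling (-0.064) and Acta1 with Tw2+ 3 and the unnumbered Tw2- library left out together (0.099). Fibroblast scaling moved the median of all genes to -0.52 and library size alone moved it to -0.28. The counts of genes called depend on single libraries. With 1 library left out, 13 to 28 of the 40 were lower and 0 to 2 higher. Of the further genes, 5 to 21 were lower (8 without either unnumbered library) and 0 to 4 higher. In these fits 6.1% to 21.4% of all genes were lower and 0.609% to 20.7% higher, both shares being largest without Tw2+ 3. At an adjusted p under 0.01, 5 of the 40 were lower (5.32% of all genes), 0 higher (0.683%), and 3 further genes lower. With fibroblast scaling 0 of the 40 were higher (0.941% of all genes) and 35 further genes were lower (23.6%). Further genes called higher numbered 3 with DESeq2 (10.2% of all genes), 1 without a filter (6.88%) and 4 with that pair of libraries left out (19%). The Myl7 to Myl2 ratio turned to 1.37 with 5 counts added and lay between -2.13 and 1.11 with 1 library left out (0.20, 0.55, 1.11 and 0.12 where it turned). The cause was not tested in any of these.

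Libraries 2 and 3 of both groups share only a number: the labels give it no meaning, and 2 pairs are too few to judge it (correlation of the differences between libraries 2 and 3 across the groups 0.434 over 13180 genes, which are not independent replicates). With the replicate number as a block on these 4 libraries, 29 of the 40 were lower (16.3% of all genes) and 1 higher (9.61%). In that fit 18 further genes were lower and 2 higher. Without the block on the same 4 libraries, a fit added after the data were seen, 12 of the 40 were lower (8.83% of all genes), 0 higher (0.85%), and 5 further genes lower. The mean paired differences of the log2 ratios to Myl2 were -1.23 for Myl7, 2.42 for Myl4, -1.64 for Nppa and 1.22 for Sln. Depth limits Sln, Myl7 in 3 libraries and Nppa in Tw2+, whose counts of 0 to 16 give coarse ratios.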

Other observations

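Some of the 40 genes varied between libraries of the same group in ways that the comparison of groups does not show. Myh7 per 100 Myl2 counts was 9.79, 7.71 and 2.28 in Tw2- and 5.87, 16.7 and 5.79 in Tw2+ (libraries 2, 3 and unnumbered), so that Tw2+ 3 stood highest, as it did for Myl7. Myom2 also peaked there, with 52.6 per 100 Myl2 counts in Tw2+ 3 and 20.8 to 32.7 in the other 5 libraries. Tcap, by contrast, was at 7.97 per 100 Myl2 counts in Tw2+ 2 and at 20.7 and 24.8 in the other Tw2+ libraries, against 8.13 to 15.3 in Tw2-. Casq2 was at 9.69 per 100 Myl2 counts in the unnumbered Tw2- library and at 31.5 in Tw2+ 3. These are values of single libraries, chosen after they were seen and not tested.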
